A study of Mus musculus with 31 samples.

Results

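The genes described here are 4 CDC2-like kinases, Clk1, Clk2, Clk3 and Clk4, and 6 of the serine/arginine-rich (SR) splicing factors that such kinases phosphorylate, Srsf1, Srsf2, Srsf3, Srsf5, Srsf6 and Srsf7. The 10 genes were selected by name from 20704 genes in a table of ribosome-protected fragments (RPFs) and 24593 genes in a table of total RNA. They were listed with the RPF, total RNA and RPF-over-total-RNA values of these same libraries known. The values of the 10 genes are therefore given as a description, without p-values, and whether a gene passed a call rule is stated only as a property of the listing.

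The cells were mouse squamous cell carcinoma (SCC) keratinocytes labelled HRasG12V:TgfbrIIfl/fl, which the study's methods describe as carrying oncogenic Hras and deleted Tgfbr2. Both lines had their endogenous eIF2α gene disrupted with CRISPR-Cas9 and expressed a myc-tagged eIF2α from a lentiviral PGK-promoter construct with a neomycin resistance gene. In S51 cells the transgene had serine 51 and the integrated stress response (ISR) could be triggered. In S51A cells the serine was replaced by alanine and the cells were ISR-null. Each line was treated with DMSO (vehicle) or with 100 nM bortezomib, a proteasome inhibitor that causes proteotoxic stress. The labels give 4.5 h of treatment, and a figure legend of the study gives 4 h and 4 samples per condition. There were 3 RPF libraries of S51 vehicle cells and 4 of each remaining group, and 4 total RNA libraries per group. Lines were grown from single cells after editing, and the clone behind each library was not given in the sources used here, so a difference between the lines cannot be told apart from a difference between clones. The study's text describes replicates both as technical and as independent biological samples, and the spread between libraries may be technical.

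CLK kinases phosphorylate the arginine/serine-rich tails of SR proteins in the nucleus, which releases SR proteins from nuclear speckles and sets how they bind RNA and other splicing factors. SR proteins bind exonic enhancers and recruit the U1 and U2 machinery to splice sites, and several of them also take part in mRNA export, stability and translation. The family is known for controlling its own output through splicing: many CLK and SR genes produce transcripts with a skipped exon, a retained intron or a poison exon that carries a premature stop codon, and such RNAs are held in the nucleus or removed by nonsense-mediated decay. Splicing of Clk1 and Clk4 in particular is known to respond to heat and osmotic stress.

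The 4 kinases share a catalytic domain, whose LAMMER motif gave the family a name, and RPF reads can be assigned to a kinase only where the DNA differs. The coding DNA around that motif is shown for this reason, with the matching stretch of Clk3, whose codons do not spell the full motif, from the RefSeq annotation of GRCm38.p6, the patch release of mm10. It lies at chr1:58412979-58413011 on the minus strand for Clk1, chr3:89175407-89175439 on the plus strand for Clk2, chr9:57752147-57752179 on the minus strand for Clk3 and chr11:51280373-51280405 on the plus strand for Clk4. Capitals mark bases that differ from Clk1.
Clk1: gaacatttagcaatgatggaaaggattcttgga
Clk2: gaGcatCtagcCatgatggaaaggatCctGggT
Clk3: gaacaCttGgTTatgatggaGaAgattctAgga
Clk4: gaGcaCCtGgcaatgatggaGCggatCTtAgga
In this window of 33 bases, Clk2 differed from Clk1 at 6 bases, Clk3 at 7 and Clk4 at 9. Over the whole coding sequence, 7 of the 1425 stretches of 28 bases in Clk1, or 0.49%, also occurred in Clk4, and none occurred in another of the 10 genes.

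Alternative exons of Clk1, Srsf3 and Srsf7 are shown because the deposited tables count reads per gene, so that RNA with and without such an exon enters 1 number. Clk1 has an exon of 91 bases at chr1:58420121-58420211 on the minus strand that a non-coding RefSeq transcript lacks. Its length leaves a remainder of 1 when divided by 3, so that skipping it shifts the reading frame.
Clk1 exon: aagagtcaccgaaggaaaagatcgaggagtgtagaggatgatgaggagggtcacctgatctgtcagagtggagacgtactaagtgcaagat
Srsf3 has an extra exon of 456 bases in a non-coding transcript, of which chr17:29039454-29039487 on the plus strand reaches the first stop codon in frame. Srsf7 has an extra exon of 460 bases, of which chr17:80205054-80205081 on the minus strand does so. Capitals mark the stop codon.
Srsf3 poison exon: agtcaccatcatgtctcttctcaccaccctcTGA
Srsf7 poison exon: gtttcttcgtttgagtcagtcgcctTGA
In the GENCODE M21 annotation, each of the 10 genes had at least 1 transcript marked for nonsense-mediated decay and at least 1 with a retained intron. Of 9280 coding genes tested in the RPF table, 30.9% had the former and 63.5% the latter. For Clk1, 2 of 13 transcripts were marked for decay and 7 had a retained intron, and for Clk4 these were 3 and 7 of 14.

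Promoters were compared because several of the kinases had higher RPF values under bortezomib. Windows from 250 bases before to 50 after a start were on file for 9 genes, all but Clk1. For Clk3, Srsf1 and Srsf2 the window lay wholly inside the gene span given below, so that it did not cover the outer start of the gene. The cAMP-response palindrome TGACGTCA was present in 1 of the 9, Clk4, and in 1.79% of 32851 promoters of the same length. It is shown in capitals in the 250 bases before the start of Clk4, chr11:51262864-51263113 on the plus strand.
Clk4 promoter: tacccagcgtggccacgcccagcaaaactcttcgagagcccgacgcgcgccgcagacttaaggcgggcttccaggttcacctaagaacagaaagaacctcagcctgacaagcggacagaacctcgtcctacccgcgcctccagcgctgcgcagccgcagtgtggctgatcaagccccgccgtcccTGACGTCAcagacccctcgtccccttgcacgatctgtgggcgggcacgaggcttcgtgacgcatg
On either strand, the heat shock element letters GAANNTTC and TTCNNGAA and the C/EBP-ATF letters TGATGNAAT were in none of the 9 windows, against 7.86%, 8.52% and 0.965% of all promoters. CCAAT was in 4 of the 9, those of Clk2, Srsf1, Srsf2 and Srsf3, and in 37.4% of all promoters. GAANNTTC and TTCNNGAA are built of the same units and can share bases, so their results are not separate observations. A match describes a sequence and not a bound site.

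In GRCm38, Clk1 spans chr1:58411988-58424088, Clk2 chr3:89164795-89177087, Clk3 chr9:57750621-57766235 and Clk4 chr11:51263114-51281770. Srsf1 spans chr11:88046499-88053757, Srsf2 chr11:116849897-116853675, Srsf3 chr17:29032660-29043372, Srsf5 chr12:80945495-80950507, Srsf6 chr2:162931508-162937121 and Srsf7 chr17:80200080-80207369. RPFs were counted in coding exons only. The sequence of some genes occurs elsewhere in the genome, and the deposited columns are named as holding uniquely mapped reads. For Srsf3, 94.87% of its coding stretches of 28 bases also occurred in other loci such as Gm9761 and Srsf3-ps, and for Srsf5 71.63% also occurred in Gm12966. The shares were 14.2% for Srsf7 and 4.08% for Clk3, and 0 for Clk2, Srsf1, Srsf2 and Srsf6. Levels of Srsf3 and Srsf5 are thus uncertain. Srsf2 overlaps Mfsd11 and Clk4 overlaps BC049762 on the opposite strand, and Clk2 overlaps Gm45927 on the same strand; use of strand in counting was not given in the sources used here.

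Total counts ranged from 1038826 to 4902237 per RPF library and from 18758668 to 22994713 per total RNA library. All 10 genes passed the filter on low counts in both tables, with 9457 genes tested for RPFs, 11708 for total RNA and 9424 for translational efficiency (TE), the RPF change over the total RNA change. Values are CPM (edgeR counts scaled to a common library size, with TMM factors for composition). They are relative to the other reads of a library, so a higher level is not shown to be more footprints or RNA per cell. A gene was called where the adjusted p of edgeR's quasi-likelihood test was below 0.05 and the change was above 1.5-fold. In total RNA, Krt5 ranged from 3647 to 6311 CPM and Krt14 from 4785 to 7261 CPM, all 7 keratinocyte and SCC markers were present in every library, and Col1a2, Col3a1, Dcn, Cd3e and Lyz2 were at 0. Of the markers of other cell types, Pdgfra (2.69 to 6.94 CPM), Cd68 (3.27 to 7.21 CPM), Kdr (0.958 to 4.63 CPM) and Pecam1 (0.0992 to 0.632 CPM) were above 0 in every library, and their part in the results was not tested. Eif2s1, which encodes eIF2α, was at 279 to 314 CPM in total RNA of all libraries. Its RPF levels were 162, 81.2 and 171 CPM in the S51 vehicle libraries, lowest in the second, and 213 to 260 CPM in S51A vehicle libraries. With bortezomib they were 148 to 196 CPM in S51 and 190 to 235 CPM in S51A libraries. Since the counts of Eif2s1 do not separate the transgene from the edited gene, they check no label. In these bulk samples, fewer cells of a type and less RNA per cell cannot be told apart.

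Under bortezomib, S51 cells had higher RPF levels of Clk1, Clk3 and Clk4, by 1.89 to 2.24 times. Clk2 and the 6 SR factors had changes between -0.34 and -0.09 on the log2 scale. In total RNA the same 3 kinases were higher by less than 1.5 times. In S51A cells the RPF log2 fold changes of Clk1, Clk3 and Clk4 were smaller, 0.76, 0.43 and 0.30.

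Clk1, a dual-specificity kinase that phosphorylates the RS domain of SR proteins, had RPF levels of 19.8, 16.4 and 42.8 CPM in the S51 vehicle libraries and of 41.5, 64.1, 70.7 and 70.0 CPM in the S51 bortezomib libraries. The third vehicle library lay above the lowest bortezomib library, so the groups overlapped. The log2 fold change was 1.16 ± 0.28 (SE, n = 3 and 4). In S51A cells, Clk1 had 13.1, 26.2, 24.1 and 36.9 CPM with vehicle and 39.0, 38.5, 55.1 and 46.8 CPM with bortezomib, and all bortezomib libraries lay above all vehicle libraries. The log2 fold change there was 0.76 ± 0.26 (SE, n = 4 and 4). Clk1 was called in both lines.

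Clk4, a close paralogue of Clk1, had the fewest footprints of the 10 genes, 12 to 80 reads per library. It was at 7.79, 8.70 and 19.7 CPM in S51 vehicle libraries and at 29.1, 25.8, 30.3 and 23.5 CPM in S51 bortezomib libraries. Every bortezomib library lay above every vehicle library, and the third vehicle library was again the highest of its group. The log2 fold change was 1.09 ± 0.26 (SE). In S51A cells the levels were 5.61, 10.98, 10.4 and 11.8 CPM with vehicle and 13.5, 14.1, 11.4 and 10.8 CPM with bortezomib. These groups overlapped, and the log2 fold change was 0.30 ± 0.26 (SE).

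The third S51 vehicle library decided the size of both changes. Without it the RPF log2 fold change in S51 cells was 1.74 for Clk1 and 1.71 for Clk4, and over each of the 7 libraries left out in turn it ranged from 0.95 to 1.74 for Clk1 and from 0.85 to 1.71 for Clk4. Both genes were called in each of these fits. The call of Clk1 in S51A cells was less stable: it was lost in 5 of 8 fits with 1 library left out, those without S51A vehicle replicate 1, 2 or 3 or S51A bortezomib replicate 3 or 4, with log2 fold changes from 0.59 to 1.03 over the 8 fits.

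Clk3, a kinase of the same family, had a smaller spread relative to its mean than Clk1 and Clk4 in each group. Its RPF levels were 48.2, 51.7 and 43.6 CPM in S51 vehicle libraries and 90.3, 77.5, 91.5 and 96.9 CPM in S51 bortezomib libraries, with no overlap and a log2 fold change of 0.92 ± 0.13 (SE). Clk3 levels in S51A cells were 50.9, 39.9, 39.8 and 38.9 CPM with vehicle and 48.6, 59.0, 60.3 and 59.6 CPM with bortezomib. The first replicate of each S51A group stood apart and made the groups overlap, and the log2 fold change of 0.43 ± 0.12 (SE) did not reach 1.5-fold.

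Clk2, which also acts in hepatic insulin signalling, did not share this pattern. It had 26.9, 25.1 and 24.4 CPM in S51 vehicle libraries and 22.6, 22.96, 23.5 and 21.8 CPM in S51 bortezomib libraries, slightly lower with no overlap. The log2 fold change was -0.16 ± 0.16 (SE). In S51A cells Clk2 ranged from 23.2 to 24.1 CPM with vehicle and from 20.5 to 31.3 CPM with bortezomib.

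**Figure D1:**
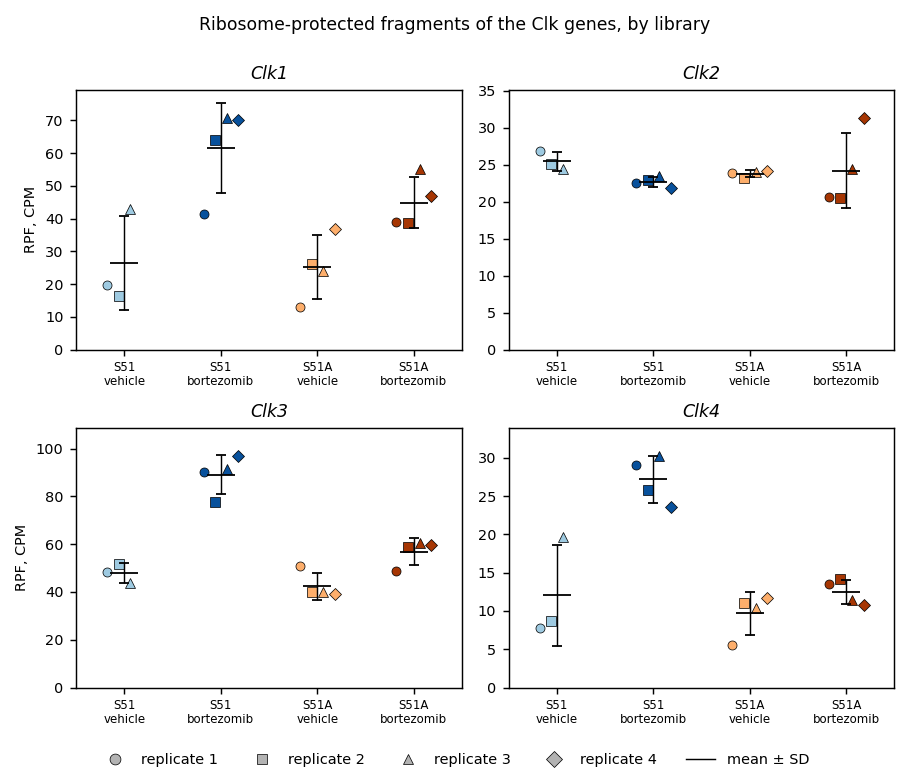
RPF level (CPM, from 0) of the 4 Clk genes in each library, by line and treatment; symbols are replicate numbers, and bars are mean ± SD of 3 (S51 vehicle) or 4 libraries. Clk3 and Clk4 were higher in all 4 S51 bortezomib libraries than in any other library, and the third S51 vehicle library was high for Clk1 and Clk4.

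Total RNA of Clk1 was 43.5, 59.96, 61.3 and 66.3 CPM in S51 vehicle libraries and 70.0, 75.7, 81.8 and 81.8 CPM in S51 bortezomib libraries. With vehicle, S51A cells had 49.2, 53.5, 52.5 and 55.9 CPM, and with bortezomib 61.4, 68.7, 68.9 and 84.1 CPM. Neither line had overlapping groups, and the log2 fold change was 0.42 ± 0.09 (SE) in both.

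Clk3 RNA ranged from 32.5 to 35.7 CPM in S51 vehicle libraries and from 46.4 to 48.9 CPM in S51 bortezomib libraries, a log2 fold change of 0.50 ± 0.06 (SE). In S51A cells it went from 30.5 to 34.1 CPM with vehicle and from 35.9 to 41.9 CPM with bortezomib, with 0.27 ± 0.06 (SE). Clk4 RNA ranged from 26.9 to 34.9 CPM and from 37.5 to 42.5 CPM in S51 cells, and from 26.7 to 28.8 CPM and from 32.2 to 34.1 CPM in S51A cells. Its log2 fold changes were 0.34 ± 0.06 and 0.24 ± 0.07 (SE), again with no overlap in either line. Clk2 RNA stayed between 16.6 and 21.7 CPM over the 16 libraries.

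The ratio of RPF to total RNA CPM of the libraries with the same replicate number shows how much of the footprint change was not matched by RNA. By the study's text both kinds of library came from the same lysates, and the libraries of a lysate were matched here by title only. For Clk4 it was 0.290, 0.280 and 0.570 in S51 vehicle replicates and 0.776, 0.639, 0.738 and 0.554 in S51 bortezomib replicates, so that the third vehicle replicate reached into the bortezomib range. The S51A ratios were 0.195, 0.412, 0.373 and 0.426 with vehicle and 0.416, 0.435, 0.356 and 0.318 with bortezomib, which overlapped. The TE log2 fold change of Clk4 was 0.72 ± 0.24 (SE) in S51 cells and 0.04 ± 0.25 (SE) in S51A cells.

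Clk4 was called for TE in S51 cells, but the call rested on the fit and on the libraries used. The fit did not pair the RPF and total RNA libraries of a lysate. With a block for lysates, matched by replicate number, the log2 fold change was 0.74 and the call was lost. The call was also lost in 11 of 15 fits with 1 library left out. In these the log2 fold change ranged from 0.47 without S51 vehicle RPF replicate 1 to 1.39 without S51 vehicle RPF replicate 3. Clk3 had a TE log2 fold change of 0.44 ± 0.12 (SE) in S51 cells and 0.17 ± 0.12 (SE) in S51A cells. Clk1 had 0.72 ± 0.29 (SE) and 0.29 ± 0.27 (SE), and Clk2 had -0.03 ± 0.17 and 0.11 ± 0.15.

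None of the 6 SR factors was called for RPFs with bortezomib in either line with all libraries in the fit. Srsf1, a founding SR protein that recruits U1 to weak splice sites, had RPF levels of 491, 523 and 468 CPM in S51 vehicle libraries and of 437, 451, 457 and 511 CPM in S51 bortezomib libraries. In S51A cells it had 407, 409.7, 375 and 398 CPM and then 344, 384, 392 and 402 CPM. The groups overlapped in both lines, with log2 fold changes of -0.09 ± 0.08 and -0.06 ± 0.08 (SE).

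Srsf2, the speckle protein also called SC35, had 747, 1275 and 661 CPM in S51 vehicle libraries and 798, 945, 787 and 781 CPM in S51 bortezomib libraries. The second vehicle library was far above the others, and the groups overlapped. In S51A cells Srsf2 had 523, 534, 485 and 440.1 CPM with vehicle and 417, 501, 502 and 515 CPM with bortezomib, below every S51 library. Its log2 fold changes with bortezomib were -0.11 ± 0.15 and -0.04 ± 0.14 (SE).

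Srsf3, the smallest SR protein, which links splicing to mRNA export, had 556, 574 and 534 CPM in S51 vehicle libraries and 514, 478, 484 and 467 CPM in S51 bortezomib libraries. In S51A cells it had 418, 409, 410.0 and 390.4 CPM and then 352, 343, 330.3 and 334 CPM. Bortezomib libraries lay below vehicle libraries without overlap in both lines, with small log2 fold changes of -0.19 ± 0.07 and -0.26 ± 0.07 (SE).

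Srsf7, an export adaptor related to Srsf3, had 321, 248 and 300.2 CPM in S51 vehicle libraries and 215, 208, 255.3 and 236 CPM in S51 bortezomib libraries. In S51A cells it had 201, 234, 194 and 240.3 CPM and then 164, 166, 164 and 184 CPM, with no overlap in this line only. Its log2 fold changes were -0.34 ± 0.11 and -0.36 ± 0.10 (SE).

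Srsf5, an SR factor known to respond to insulin, had 398, 238 and 321 CPM in S51 vehicle libraries, 325, 253, 268 and 166 CPM in S51 bortezomib libraries, 357, 339, 337 and 286 CPM in S51A vehicle libraries and 287, 234, 225 and 153 CPM in S51A bortezomib libraries. Groups overlapped in both lines, with log2 fold changes of -0.34 ± 0.19 and -0.55 ± 0.18 (SE). The S51A value was larger in size than those of Clk3 and Clk4 in that line. It was called, as lower, without S51A vehicle replicate 4 (-0.61) and without S51A bortezomib replicate 1 (-0.70). Srsf6 ranged from 487 to 534 CPM and from 397 to 524 CPM in S51 cells, and from 407 to 475 CPM and from 336 to 422 CPM in S51A cells. Its log2 fold changes were -0.11 ± 0.10 and -0.21 ± 0.09 (SE).

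**Figure D2:**
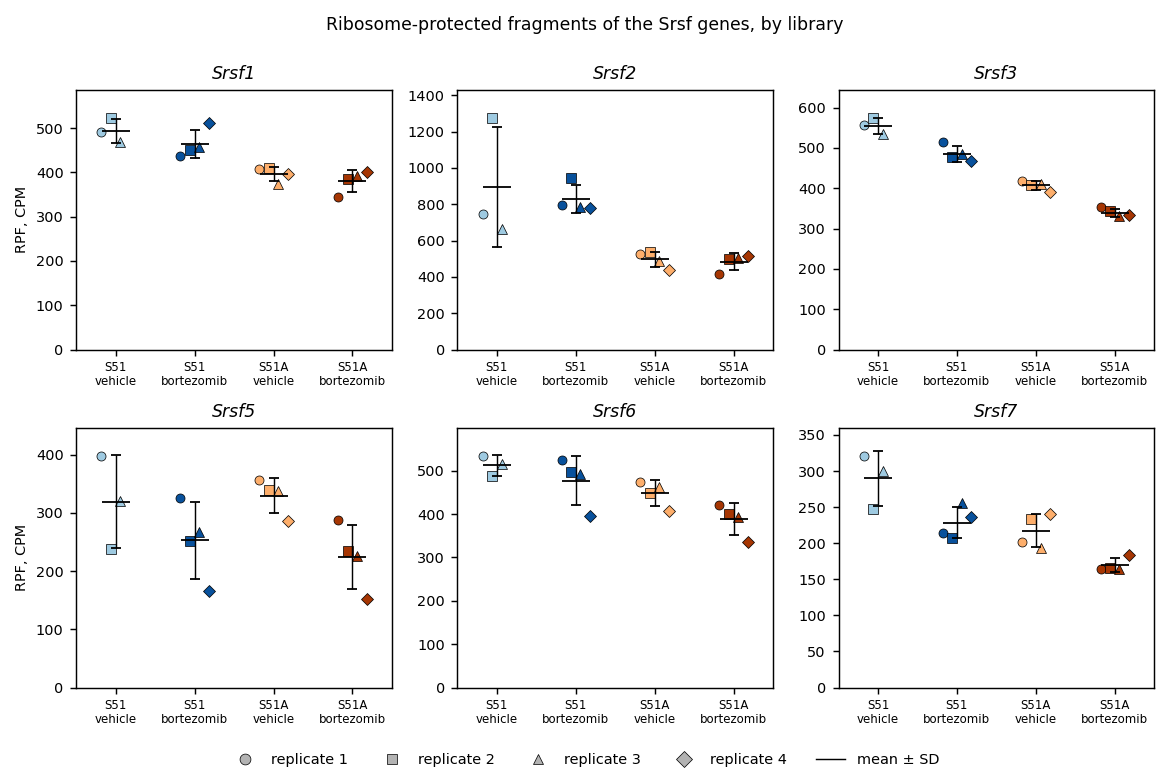
RPF level (CPM, from 0) of the 6 Srsf genes in each library, by line and treatment; symbols are replicate numbers, and bars are mean ± SD of 3 (S51 vehicle) or 4 libraries. Srsf2 was lower in all 8 S51A libraries than in all 7 S51 libraries, and its second S51 vehicle library stood at 1275 CPM.

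In total RNA, Srsf7 had the largest decrease with bortezomib of the 10 genes. It was at 159, 176, 164 and 165 CPM in S51 vehicle libraries and at 123, 128, 123 and 124 CPM in S51 bortezomib libraries. In S51A cells it was at 106, 119.8, 109.9 and 128 CPM and then at 81.5, 87.2, 78.7 and 88.1 CPM. S51 bortezomib and S51A vehicle libraries overlapped, and no other pair of groups did. The log2 fold changes with bortezomib were -0.42 ± 0.05 in S51 and -0.47 ± 0.05 in S51A cells (SE).

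Srsf3 RNA ranged from 533 to 567 CPM in S51 vehicle and from 448 to 501 CPM in S51 bortezomib libraries, and from 427 to 434 CPM and from 349 to 375 CPM in S51A cells. Its log2 fold changes were -0.20 ± 0.04 and -0.23 ± 0.04 (SE). Srsf1, Srsf2 and Srsf5 had lower RNA without overlap in S51A cells, by -0.17 ± 0.04, -0.15 ± 0.04 and -0.38 ± 0.09 on the log2 scale. In S51 cells their values of -0.04 ± 0.04, -0.08 ± 0.04 and -0.20 ± 0.09 came with overlapping groups. Srsf6 RNA had a log2 fold change of 0.04 ± 0.05 in S51 cells, whose sign turned to -0.12 when libraries were scaled by their totals alone, and of -0.12 ± 0.05 in S51A cells (SE). No SR factor was called for TE in either line, and their TE log2 fold changes lay between -0.16 and 0.11.

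**Figure D3:**
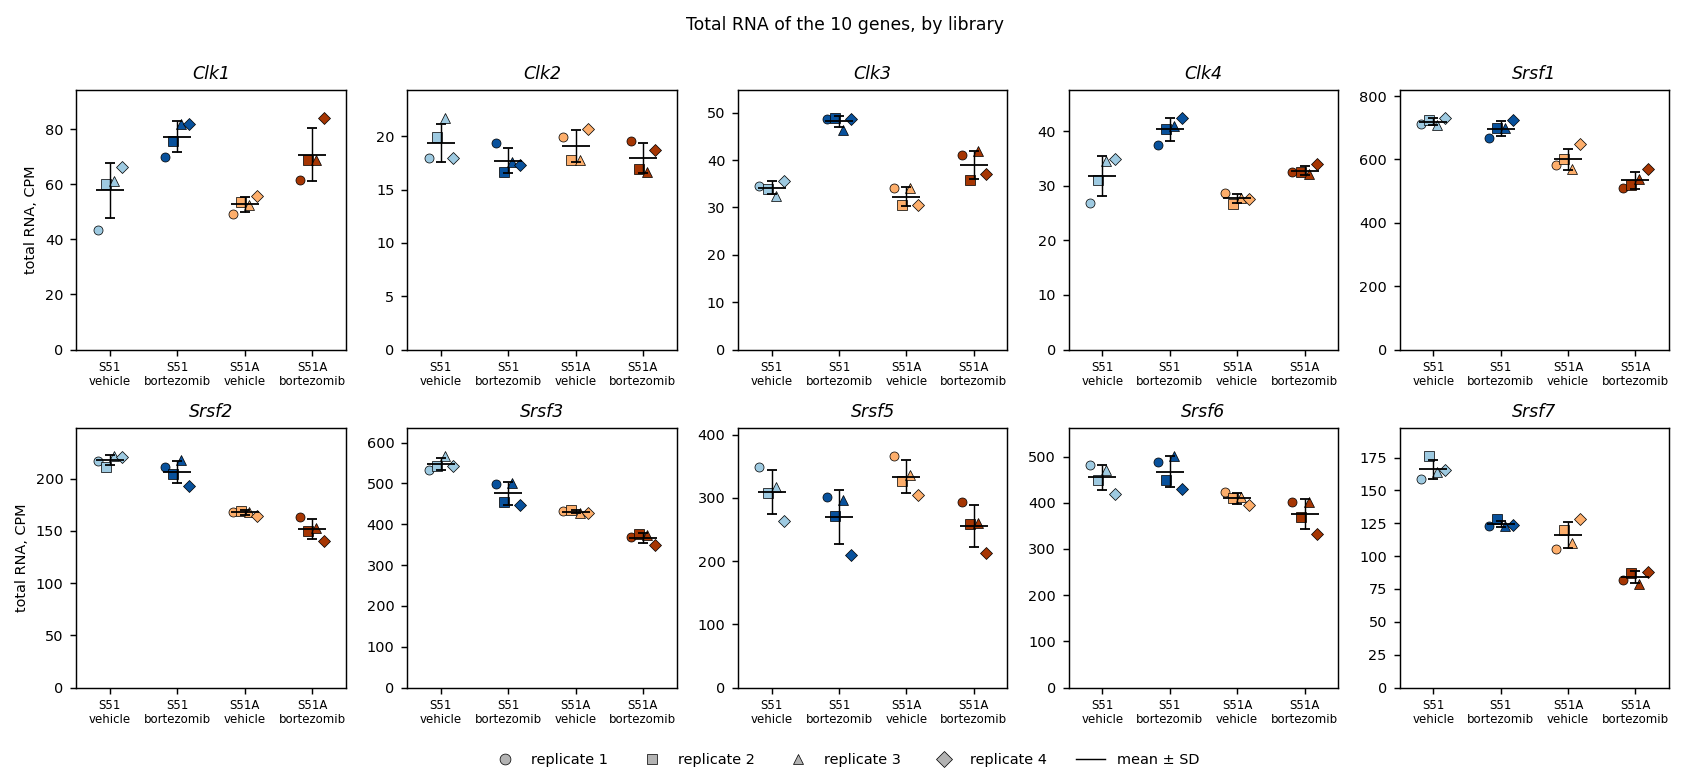
Total RNA level (CPM, from 0) of the 10 genes in each of 16 libraries, by line and treatment; symbols are replicate numbers, and bars are mean ± SD of 4 libraries. Clk1, Clk3 and Clk4 were higher and Srsf3 and Srsf7 lower with bortezomib in both lines without overlap.

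Counted over the 10 genes, 3 were called for RPFs in S51 cells, each higher (Clk1, Clk3 and Clk4), where 18.6% of all 9457 genes were called in either direction. In S51A cells 1 was called, Clk1, where 10.9% of genes were. In total RNA none was called in either line, where 15.3% of 11708 genes were in S51 and 13.1% in S51A cells. For TE 1 was called in S51 cells, Clk4, and none in S51A cells, against 5.28% and 0.987% of 9424 genes. DESeq2 in place of edgeR gave the same counts for RPFs and total RNA in both lines.

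With the fold limit dropped, an option chosen after the data were seen, more of these genes passed at an adjusted p below 0.05. For RPFs these were 5 in S51 cells, with Srsf3 and Srsf7 lower beside the 3 kinases, and 5 in S51A cells, where Clk1 and Clk3 were higher and Srsf3, Srsf5 and Srsf7 lower. The shares of all genes were 30.8% and 20.6%. In total RNA 5 passed in S51 cells and 8 in S51A cells, with Clk1, Clk3 and Clk4 higher in both and 2 and 5 SR factors lower, against 59.8% and 56.4%. For TE 2 passed in S51 cells, Clk3 and Clk4, against 9.65%. Groups did not overlap in RPFs for 4 of the 10 genes in S51 and 3 in S51A cells, where 32.2% and 28.1% of all genes did not, and in total RNA for 5 and 8, where 53.8% and 49.3% did not.

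The median RPF log2 fold change in S51 cells was 1.00 over the Clk genes, -0.15 over the Srsf genes and 0.00 over all genes tested. In S51A cells these were 0.37, -0.23 and -0.01. In total RNA they were 0.38, -0.14 and -0.01 in S51 cells and 0.26, -0.20 and -0.01 in S51A cells.

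**Figure D4:**
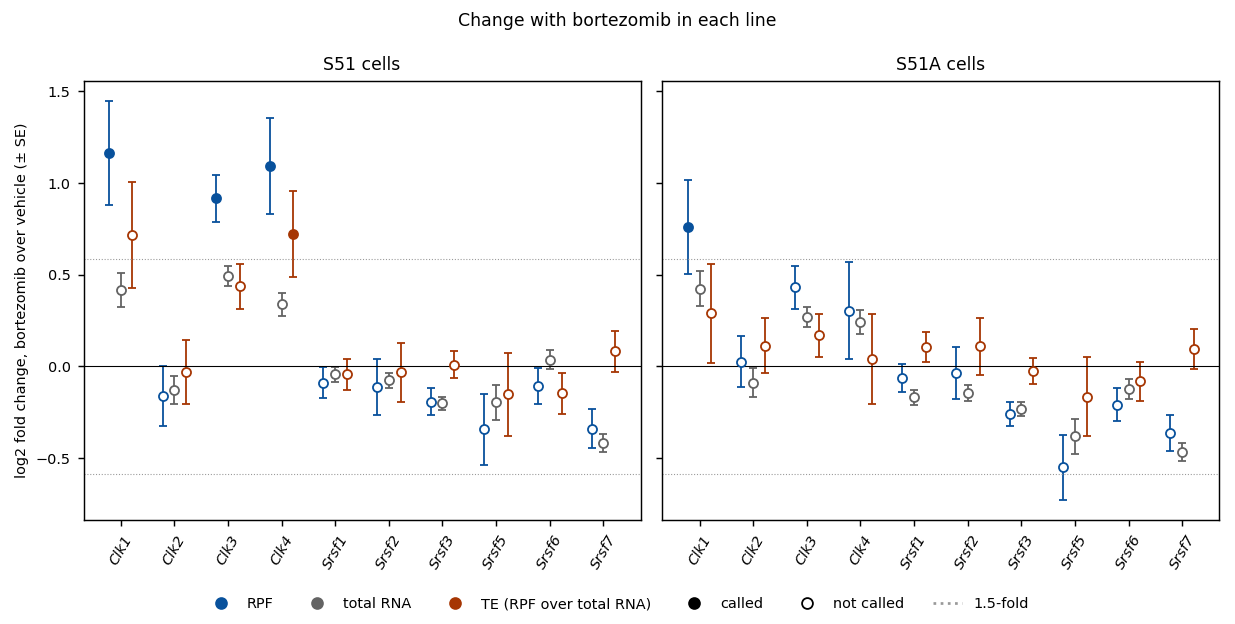
Log2 fold change of bortezomib over vehicle ± SE for the 10 genes in S51 cells (left) and S51A cells (right), for RPFs, total RNA and TE; filled points were called, and dotted lines mark 1.5-fold. In S51 cells Clk1, Clk3 and Clk4 had RPF values of 0.92 to 1.16, and the SR factors lay between -0.42 and 0.08 in all measures.

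Between the lines without stress, the SR factors were lower in S51A than in S51 cells, with the exception of Srsf5. Srsf2 had the largest RPF difference, -0.85 ± 0.15 (SE, log2, S51A over S51), followed by Srsf3 with -0.45 ± 0.07, Srsf7 with -0.41 ± 0.10, Srsf1 with -0.31 ± 0.08 and Srsf6 with -0.20 ± 0.10. Srsf5 was at 0.04 ± 0.19, and the kinases lay between -0.34 and -0.08. Srsf2 alone was called, where 15.8% of all genes were, and 4 of the 10 passed without the fold limit, against 28.6%. The value of Srsf2 leaned on its second S51 vehicle library: without it the difference was -0.51 and the call was lost. That library stood apart for some genes outside the 10 too. Its RPF level was 60.9 CPM for Srsf10, against 113 and 114 CPM in the other S51 vehicle libraries, and 147 CPM for Srsf11, against 88.6 and 100 CPM. Several RPF calls of listed genes given below were also lost without it, and what set it apart was not tested. For 6 of the 10 genes all S51A vehicle libraries lay below all S51 vehicle libraries, where 33.0% of genes did not overlap.

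In total RNA the vehicle differences were -0.52 ± 0.05 for Srsf7, -0.38 ± 0.04 for Srsf2, -0.34 ± 0.04 for Srsf3, -0.26 ± 0.04 for Srsf1 and -0.15 ± 0.05 for Srsf6 (SE), and Srsf5 was at 0.11 ± 0.09. Srsf2 RNA was at 217, 211, 222 and 221 CPM in S51 and at 168, 169, 169 and 165 CPM in S51A vehicle libraries, groups far apart compared with their spread. None of the 10 was called, where 17.5% of genes were, and 6 passed without the fold limit, against 63.8%. Groups did not overlap for 4 of the 10, against 56.6%. For TE none was called, against 0.0849% of genes, and the lowest value was that of Srsf2, -0.47 ± 0.16 (SE).

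Under bortezomib, S51 cells had higher RPF levels than S51A cells for 9 of the 10 genes. With vehicle, 9 of the 10, all but Srsf5, were also higher in S51 than in S51A cells. Clk4 had the largest difference, 1.13 ± 0.25 (SE, log2, S51 over S51A), then Srsf2 with 0.77 ± 0.14 and Clk3 with 0.66 ± 0.12. These 3 were called, where 17.7% of genes were. Srsf3, Clk1, Srsf7, Srsf6 and Srsf1 had 0.52 ± 0.07, 0.48 ± 0.25, 0.44 ± 0.10, 0.30 ± 0.09 and 0.29 ± 0.08, and Clk2 was at -0.09 ± 0.16. Without the fold limit 7 passed, against 31.5%, and 6 did not overlap, against 34.4%. All 3 calls were kept in each of 8 fits with 1 library left out.

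In total RNA under bortezomib, Srsf7 differed most, by 0.57 ± 0.05, followed by Srsf2 with 0.45 ± 0.04, Srsf1 with 0.39 ± 0.04, Srsf3 with 0.37 ± 0.04, and Clk3 and Srsf6 with 0.31 ± 0.05 each (SE). None was called, where 20.0% of genes were, 7 passed without the fold limit, against 65.7%, and 7 did not overlap, against 56.9%. For TE, Clk4 was called with 0.84 ± 0.23 (SE), where 3.08% of genes were. Clk3 had 0.37 ± 0.12 and passed without the fold limit together with Clk4, against 6.40%. The TE call of Clk4 was lost in 2 of 16 fits with 1 library left out, those without S51 bortezomib RPF replicate 3 or S51A bortezomib RPF replicate 4. These contrasts share libraries with the bortezomib responses above and are not independent of them.

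**Figure D5:**
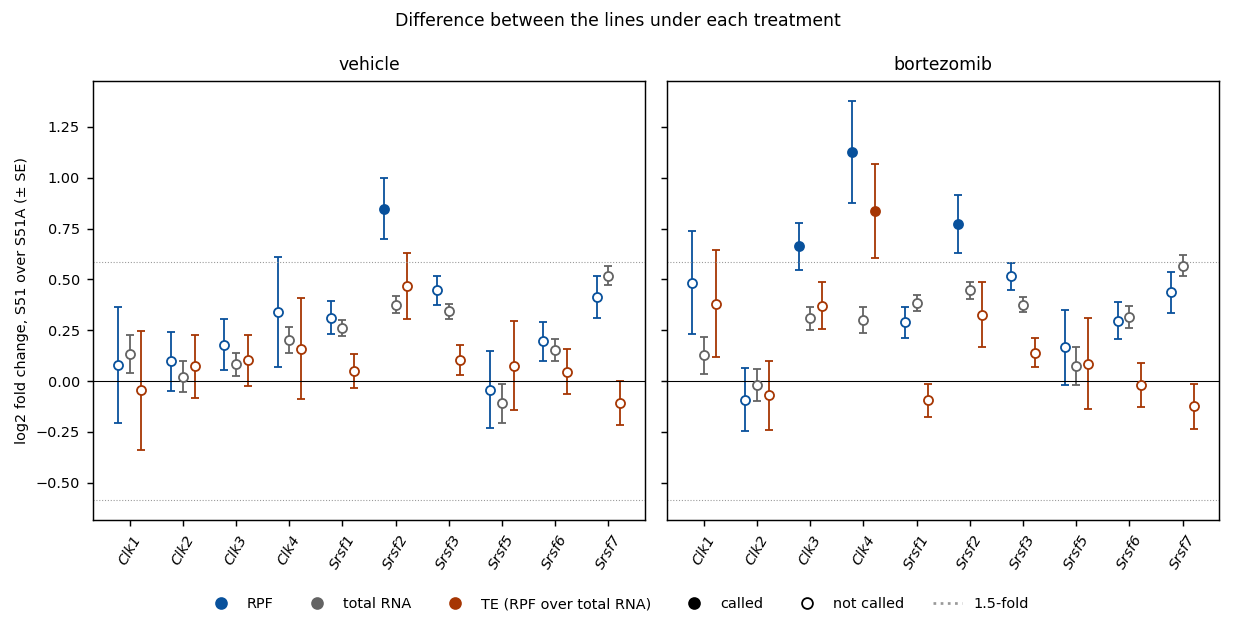
Log2 fold change of S51 over S51A ± SE for the 10 genes with vehicle (left; the sign of the S51A-over-S51 values in the text is turned) and with bortezomib (right), for RPFs, total RNA and TE; filled points were called, and dotted lines mark 1.5-fold. Srsf2 was called for RPFs with both treatments, and Clk3 and Clk4 with bortezomib.

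The difference between the bortezomib responses of the 2 lines is given as an interaction, the S51 response minus the S51A response. For RPFs it was 0.79 ± 0.37 for Clk4, 0.48 ± 0.17 for Clk3, 0.40 ± 0.38 for Clk1 and -0.19 ± 0.21 for Clk2 (SE, log2), and between -0.07 and 0.21 for the SR factors. None of the 10 genes was called, where 1.86% of all genes were. Without S51 vehicle RPF replicate 3, Clk4 was called, with 1.41. In total RNA none was called, where 2.09% were, and Clk3, with 0.23 ± 0.08 (SE), passed without the fold limit, against 21.6%. For TE none was called, where 1.29% were, with 0.68 ± 0.34 (SE) for Clk4, which without S51 vehicle RPF replicate 3 was called with 1.35. The larger RPF changes of Clk1, Clk3 and Clk4 in S51 than in S51A cells did not pass the call rule with all libraries in the fit. They were not shown to differ between the lines. Since the 10 genes were listed with these values known, the interaction describes them and is no independent test.

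To compare genes, RPF CPM was divided by full coding length in kb. By the study's methods, several codons at both ends were not counted, which lowers the values of short coding sequences most. In S51 vehicle libraries the kinases were at 8.28 ± 4.54 for Clk4, 17.0 ± 0.866 for Clk2, 18.2 ± 9.88 for Clk1 and 32.5 ± 2.78 for Clk3 (mean ± SD, n = 3). Clk2 and Clk1 did not differ beyond their spread. The SR factors were at 392 ± 98.4 for Srsf5, 404 ± 52.4 for Srsf7, 503 ± 23.2 for Srsf6, 661 ± 37.2 for Srsf1, 1121 ± 40.9 for Srsf3 and 1343 ± 499 for Srsf2. Srsf5 and Srsf7 overlapped, and so did Srsf3 and Srsf2. In S51 bortezomib libraries Clk2 was at 15.1 ± 0.452, Clk4 at 18.7 ± 2.12, Clk1 at 42.4 ± 9.45 and Clk3 at 60.4 ± 5.59 (n = 4), so that Clk4 passed Clk2 in the order. In S51A bortezomib libraries the order was Clk4 with 8.58 ± 1.10, Clk2 with 16.1 ± 3.39, Clk1 with 30.9 ± 5.40 and Clk3 with 38.6 ± 3.75. Per coding length, every SR factor had more footprints than every kinase in each of the groups.

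Other genes of the splicing pathway were taken from lists chosen with earlier results of these data known. The p-values printed for them are therefore no independent support. Of the 5 other SR proteins, Srsf12 had at most 2 reads in any library and was not tested, and none of Srsf4, Srsf9, Srsf10 and Srsf11 was called in any comparison. Srsf9 had an RPF log2 fold change of -0.36 ± 0.13 with bortezomib in S51 cells (adjusted p = 0.0371, edgeR) and -0.06 ± 0.12 in S51A cells (adjusted p = 0.771, edgeR). In total RNA, the responses of Srsf9 differed between the lines by -0.21 ± 0.05 (adjusted p = 0.00362, edgeR interaction), below the fold limit. Srsf11 had RPF log2 fold changes of 0.35 ± 0.16 and 0.35 ± 0.14 in the 2 lines. None of the 11 tested kinases, phosphatases and importers of SR proteins was called for RPFs with bortezomib in either line by edgeR or DESeq2. By edgeR, 18.6% of all genes were called in S51 and 10.9% in S51A cells. Of the 11, 1 in S51 and 4 in S51A cells had an unadjusted p below 0.05.

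In S51 cells, 3 of 28 SR-related splicing regulators rose and 1 fell in RPFs with bortezomib, where 18.6% of all genes were called. Son, a scaffold of nuclear speckles, rose by 1.34 ± 0.12 on the log2 scale (adjusted p = 1.46e-08, edgeR). Rbm39, a cofactor of U2AF, rose by 0.76 ± 0.15 (adjusted p = 0.000547, edgeR), a call that was lost without S51 vehicle RPF replicate 2. Srek1 rose by 0.63 ± 0.16 (adjusted p = 0.00465, edgeR), a call that was lost without S51 bortezomib RPF replicate 3 or 4. Of 15 nonsense-mediated decay genes 4 rose and none fell, among them the endonuclease gene Smg6 with 0.90 ± 0.15 and the kinase gene Smg1 with 0.85 ± 0.14. Upf2, which joins the exon junction complex to Upf1, rose by 0.74 ± 0.16.

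Of 40 core spliceosome genes 2 rose, Prpf8 at the heart of U5 with 0.98 ± 0.12 and Sf3b1 of U2 with 0.61 ± 0.12, and none fell. The call of Sf3b1 was lost without S51 vehicle RPF replicate 2 or S51 bortezomib RPF replicate 3. Of 26 hnRNP genes 1 was called, Hnrnpa0, which fell by 0.90 (SE 0.17), a call that was lost without S51 vehicle RPF replicate 2. In S51 cells 11 of the 124 tested genes of these lists were called for RPFs with bortezomib, where 18.6% of all genes were. In S51A cells none of the 124 was called by edgeR or by DESeq2, where 10.9% of all genes were called by edgeR. In that line 42 of the 124 had an unadjusted p below 0.05. The list medians in S51 cells were 0.33 for decay genes, 0.15 for SR-related regulators, 0.13 for hnRNP genes, 0.09 for core spliceosome genes and 0.00 for all genes tested. The responses of the 2 lines differed for Son, by 0.78 ± 0.16 (adjusted p = 0.00717, edgeR interaction), and for Prpf8, by 0.69 ± 0.16 (adjusted p = 0.0198, edgeR interaction). These were 2 of the 124 tested genes of the lists, where 1.86% of all genes were called. The call of Prpf8 was lost without S51 bortezomib RPF replicate 3 or 4, S51A vehicle RPF replicate 2 or S51A bortezomib RPF replicate 2 or 3.

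In total RNA of S51 cells with bortezomib, Prpf8 rose by 0.75 ± 0.05, the U5 helicase gene Snrnp200 by 0.64 ± 0.04 and the decay gene Smg9 by 0.67 ± 0.07. In S51A cells Rbmx fell by 0.78 (SE 0.07) and no other listed gene was called, where 13.1% of all genes were. For TE in S51 cells Son rose by 0.81 ± 0.11, and the hnRNP genes Pcbp2, Hnrnpa0 and Hnrnpa1 fell by 1.04, 0.70 and 0.66. The TE call of Hnrnpa0 was lost without S51 vehicle RPF replicate 2 or S51 bortezomib RPF replicate 3, and that of Hnrnpa1 without S51 vehicle RPF replicate 3. Scaling by library totals alone ended both calls and those of Snrnp200 and Smg9 in total RNA. Pcbp2 also differed between the lines, by -0.73 ± 0.18 (adjusted p = 0.0223, edgeR interaction), where 1.29% of all genes were called for TE. That call was lost when libraries were scaled by their totals alone.

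Between the vehicle groups, 7 of the 124 tested genes of these lists were called for RPFs, against 15.8% of all genes; the genes of this comparison were named after their values were seen. The SR protein kinase gene Srpk2 was higher in S51A than in S51 vehicle cells, by 1.14 ± 0.19 for RPFs (adjusted p = 0.000137, edgeR) and 0.98 ± 0.07 for total RNA. The other 6 were lower in S51A cells, with RPF log2 values of -0.77 ± 0.17 for Hnrnpa0, -0.76 ± 0.18 for Sf3a2, -0.73 ± 0.11 for Srrm1, -0.67 ± 0.20 for Clasrp, -0.61 ± 0.13 for Bclaf1 and -0.59 ± 0.14 for Sf3b5. Without S51 vehicle RPF replicate 2, the calls of Hnrnpa0, Sf3a2, Srrm1, Clasrp and Sf3b5 were lost. Clasrp also lost its call without S51A vehicle replicate 3, Sf3b5 without S51A vehicle replicate 4, and Bclaf1 without S51 vehicle replicate 1 or 3 or S51A vehicle replicate 1 or 3. In total RNA of vehicle cells, Hnrnpa1 and Bclaf1 were lower in S51A cells, with -0.69 ± 0.03 and -0.61 ± 0.04, and the kinase gene Dyrk1b was higher, by 0.82 ± 0.20.

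Under bortezomib Srpk2 was lower in S51 than in S51A cells, by a log2 value of -0.71 ± 0.19 for RPFs. Bclaf1 and Thrap3, which encode related RS-domain proteins, were higher in S51 than in S51A cells under bortezomib, by 1.08 ± 0.13 and 0.81 ± 0.10 for RPFs. With vehicle, Thrap3 had -0.44 ± 0.10 for S51A over S51, below the fold limit, so that both genes differed in the same direction without the drug. For RPFs of S51 over S51A cells under bortezomib, 7 of 28 SR-related regulators were higher and none lower, where 17.7% of all genes were called. Rsrc1 was among the 7 with 0.74 ± 0.21. The spliceosome genes Prpf39 and Prpf8 were higher by 0.67 ± 0.26 and 0.59 ± 0.11 and the decay genes Smg9 and Magohb by 0.68 ± 0.15 and 0.63 ± 0.21, and the phosphatase gene Ppp1cc was lower, with -0.64 ± 0.20. With 1 library left out, the call of Prpf39 was kept only without S51 bortezomib replicate 1, and that of Prpf8 was lost without S51 bortezomib replicate 3 or 4 or S51A bortezomib replicate 1, 2 or 3. The call of Magohb was lost without S51 bortezomib replicate 3 or S51A bortezomib replicate 2 or 4, and that of Ppp1cc without S51 bortezomib replicate 2.

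In total RNA under bortezomib, Bclaf1 was higher in S51 than in S51A cells by 0.99 ± 0.04, Hnrnpa1 by 0.95 ± 0.03, Smg9 by 0.71 ± 0.07, Hnrnpd by 0.69 ± 0.06, Sf3b3 by 0.65 ± 0.03, Tra2b by 0.63 ± 0.04 and Hnrnpdl by 0.63 ± 0.06, and the kinase genes Dyrk1b and Srpk2 were lower, with -1.09 ± 0.19 and -0.97 ± 0.07. Bclaf1, Hnrnpa1, Dyrk1b and Srpk2 were called in the same direction between the vehicle groups. The call of Hnrnpdl was lost without S51 bortezomib total RNA replicate 3. Scaling by library totals alone ended the calls of Hnrnpdl and Tra2b. For TE, Hnrnpa1 and Ppp1cc were lower in S51 cells, with -0.63 ± 0.10 and -0.59 ± 0.17. The former call was lost without S51A bortezomib RPF replicate 1, and the latter in 8 of 16 fits with 1 library left out. Scaling by library totals alone ended both TE calls. That of Ppp1cc was also lost with DESeq2 and with only the 2 groups compared.

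Among genes outside the 10, Hnrnpm, Ddb1, Bub3, Rexo2 and Ercc5 had RPF profiles most like the mean profile of the 4 Clk genes over the 15 RPF libraries, with Pearson's r of 0.923, 0.917, 0.912, 0.900 and 0.900. Those most like the mean of the 6 Srsf genes were Ccnd2, Prmt7, Gart, Wdr74 and Naf1, with 0.964, 0.959, 0.955, 0.953 and 0.950. The points share the libraries, their depth and the 4 groups, and the values describe likeness only.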

How the data were processed

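Ribosome-protected fragments and rRNA-depleted total RNA were sequenced from S51 and S51A mouse SCC cells. The deposited files hold raw counts per Entrez gene. By the study's methods, FastX trimming preceded bowtie2 alignment to mm10 and counting with plastid. RPFs were counted in coding sequence without several codons at its start and at its end. The labels also name featureCounts and DESeq2 without a role, and versions were not given in the sources used here. Column names describe uniquely mapped reads after removal of rRNA, masking of repeats and marking of duplicates. A series note states that titles of the S51 bortezomib and S51A vehicle samples were exchanged while the data stayed, and columns were assigned by that note.

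Members and lists were chosen with earlier results of these data known. Counts were filtered with filterByExpr (minimum count 10) and tested with edgeR 4.0.16 in R 4.3.3: TMM factors, 1 coefficient per group over all 4 groups, quasi-likelihood test, Benjamini-Hochberg adjustment over all genes tested. TE came from 1 fit of both kinds of library, which did not pair them by lysate. A call needed an adjusted p below 0.05 and a change above 1.5-fold. Of each list outside the 10 genes, up to 3 called genes with the largest change were to be named per bortezomib comparison, beside all 5 other SR proteins, Eif2s1 and the 5 genes most like each profile. Gene symbols, promoters and gene models came from RefSeq GRCm38.p6, where 20687 of 20704 RPF and 24569 of 24593 total RNA identifiers matched. The fits were tested on simulated data. No libraries of a group agreed within sampling noise (chi-square per gene at least 1.66). P-values measure the spread between these libraries only. Alternatives were DESeq2 1.42.0, other scalings and filters, a replicate block, other fold limits and leaving out each library.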

Additional observations from a re-analysis of the deposited data

Results flagged for a closer look

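Within groups of 4 libraries, the highest or lowest value of a gene was compared with the nearest of the others by Dixon's ratio at its 95% critical value. Of 70 groups of the 10 genes, 6 had such a value, where chance gives about 1 in 20. The RPF level of Clk3 was 50.93 CPM in S51A vehicle replicate 1, above 38.9 to 39.9 CPM in the other replicates, and 48.65 CPM in S51A bortezomib replicate 1, below 59.0 to 60.3 CPM. Srsf2 had 945.0 CPM in S51 bortezomib RPF replicate 2, against 781 to 798 CPM, and 417.2 CPM in S51A bortezomib RPF replicate 1, against 501 to 515 CPM. Srsf7 had 184.2 CPM in S51A bortezomib RPF replicate 4, against 164 to 166 CPM. Clk3 had 46.41 CPM in S51 bortezomib total RNA replicate 3, against 48.7 to 48.9 CPM. S51 vehicle RPFs, with 3 libraries, were not tested in this way.

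The response to bortezomib differed between S51 and S51A cells, by the edgeR interaction term, for Prpf8 RPFs (0.69 on the log2 scale), Son RPFs (0.78) and Pcbp2 TE (-0.73). For RPFs these were 2 of 124 listed genes, where 1.86% of all genes were called. For TE 1.29% of all genes were called. Son kept its call in each fit with 1 library left out, and Prpf8 lost it in 5 of them, those without S51 bortezomib replicate 3 or 4, S51A vehicle replicate 2 or S51A bortezomib replicate 2 or 3. The call of Pcbp2 was lost with library sizes alone.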

How the results depend on the processing

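No change of a called gene turned its direction under any alternative run. Of 2930 recomputed log2 fold changes of the 10 genes 55 moved by more than the spread between replicates, 22 calls were lost and 12 gained; of 2228 recomputed values of listed genes outside the 10, 119 calls were lost and 22 gained. The count of TE calls in S51 cells, 1 in the report, was 3 with library sizes alone (Clk1, Clk3 and Clk4), 2 with the 2-step rule of the study (Clk1 and Clk4), and 0 with no filter beyond 1 count, with only the 2 groups compared, and with a replicate block of lysates. Scaling by library sizes alone moved the median of all genes in total RNA by -0.15 in S51 and -0.12 in S51A cells, and in TE by 0.15 and 0.09; the cause of the other changes was not tested. With the fold limit at 2, RPF calls were 0 for bortezomib in S51A cells, 0 for S51A over S51 vehicle and 1 for S51 over S51A bortezomib, and TE calls were 0 in S51 cells and 0 for S51 over S51A bortezomib.

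With an adjusted p below 0.05 at any fold, chosen after the data were seen, counts for RPFs were 5, 5, 4 and 7 (bortezomib in S51, in S51A, S51A over S51 vehicle, S51 over S51A bortezomib), for total RNA 5, 8, 6 and 7, with 1 for the interaction, and for TE 2 in S51 cells and 2 for S51 over S51A bortezomib.

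Replicate numbers in the titles were not taken as pairs, since not every same-numbered pair correlated above 0.1: correlations of same-numbered libraries ran from -0.158 to 0.261 for RPFs, above 0.1 in 3 of 21 pairs, and from 0.002 to 0.191 for total RNA, above 0.1 in 8 of 24. Libraries of different numbers had -0.358 to 0.308 for RPFs and -0.167 to 0.0992 for total RNA, so that in total RNA the pairs above 0.1 were all same-numbered, which is a hint from the data and not from the design. A replicate block gave 2 RPF calls in S51A cells, Clk1 and, as lower with -0.59, Srsf5, and changed no other count of RPF or total RNA calls by over 1.5 times. Among the named genes outside the 10 it ended the RPF calls of Srek1 (bortezomib in S51), Prpf39 (S51 over S51A bortezomib), Bclaf1 and Sf3b5 (S51A over S51 vehicle), and the block of lysates ended the TE calls of Hnrnpa0 in S51 cells and Ppp1cc for S51 over S51A bortezomib.

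With 1 library left out, the counts ranged as follows. RPF calls were 3 to 3 in S51 cells and for S51 over S51A bortezomib, 0 to 2 in S51A cells, 0 to 1 for S51A over S51 vehicle and 0 to 1 for the interaction. TE calls were 0 to 2 in S51 cells, 0 to 1 for S51 over S51A bortezomib, 0 to 1 for S51A over S51 vehicle (Srsf2, without S51 vehicle RPF replicate 3), 0 to 1 for the interaction and 0 to 0 in S51A cells. Total RNA calls were 0 to 1 for S51 over S51A bortezomib (Srsf7, without S51A bortezomib replicate 2 or 4) and 0 to 0 elsewhere. Depth limits the RPF values of Clk4 most, with 12 to 80 reads per library.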

Other observations

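In some genes the same replicate number was at the end of the range in each of the 4 groups. In RPFs, replicate 1 was the highest for Srsf5 and Srsf6. In total RNA, replicate 1 was the lowest for Clk1 and the highest for Srsf5, and replicate 4 was the lowest for Srsf5 and Srsf6 and the highest for Srsf1. For Srsf5 this gave total RNA of 366 CPM in replicate 1 and 304 CPM in replicate 4 of S51A vehicle cells. These values were noticed after the data were seen, and what the numbers share was not given in the sources used here.

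Upstream start codons, which the ISR is known to act through in some mRNAs, were counted in the 5' leaders of the RefSeq mRNAs of these genes. Clk4, Srsf1 and Srsf5 had 1 upstream ATG each and the other 7 genes none, where 46.5% of 9440 tested genes had at least 1. The upstream frame was closed before the start codon for Srsf1 and Srsf5 and not for Clk4, where 38.9% of tested genes had a closed one.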
